A study of Mus musculus with 12 samples.

Results

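The 6 genes described here are the metallothionein genes Mt1 and Mt2, the transcription factor gene Mtf1, and the zinc transporter genes Slc30a1, Slc39a14 and Slc39a8. Every probe whose symbol in the platform annotation was one of these 6 was taken, which gave 10 of the 45281 probes on the array. Of these, 9 were bright enough to be tested, among 23984 tested probes in all. Of the 12616 genes with a tested probe these are 6. The set was chosen by the higher Mt2 values of ethanol kidneys in this same comparison, already known, so the group differences below are descriptions and support nothing further.

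RNA came from whole kidneys of male mice of the inbred strain C57BL/6J at postnatal day 28, with 1 Illumina array per kidney. The ethanol group (6 kidneys) was exposed in utero, as the dams drank 10% (v/v) ethanol ad libitum between fertilization and gestation day 8.5. The control group (6 kidneys) had the same strain, sex, age and tissue. The labels carry the ethanol protocol for all 12 samples and name the group in the sample titles, and they do not say what the control dams drank. They name neither dam nor litter and do not say that the samples are separate animals, so a p-value covers only the spread between these samples.

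Metallothioneins are small, cysteine-rich proteins that bind zinc, copper and cadmium in the cytosol, and the kidney tubule is one of the tissues in which they store cadmium. Zinc that enters a cell binds MTF1, the protein of Mtf1, which moves to metal response elements in target promoters, and Mt1, Mt2 and Slc30a1 are its best known targets in mouse. Slc30a1 encodes ZnT1, which exports zinc across the plasma membrane, while Slc39a14 and Slc39a8 encode the importers ZIP14 and ZIP8, which also carry manganese, iron and cadmium. Metallothionein genes are also induced by glucocorticoids and during the acute phase response.

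Whether promoter sequence bears on the co-variation of Mt1 and Mt2 given below was not tested. The promoters of the 3 known targets are shown as a description. They are RefSeq sequences of build GRCm38.p6, from 250 bases before to 50 bases after the annotated start site, all on the plus strand. The windows are chr8:94172368-94172667 for Mt2, chr8:94178839-94179138 for Mt1 and chr1:191906531-191906830 for Slc30a1. Capitals mark the core of the metal response element, searched as TGCACNC and TGCGCNC on both strands.
Mt2: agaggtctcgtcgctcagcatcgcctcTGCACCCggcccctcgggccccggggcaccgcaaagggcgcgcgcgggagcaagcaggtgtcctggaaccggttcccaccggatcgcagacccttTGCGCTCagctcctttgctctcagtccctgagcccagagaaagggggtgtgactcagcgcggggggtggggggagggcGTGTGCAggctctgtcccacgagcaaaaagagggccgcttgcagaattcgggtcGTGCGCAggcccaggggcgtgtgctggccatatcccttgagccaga
Mt1: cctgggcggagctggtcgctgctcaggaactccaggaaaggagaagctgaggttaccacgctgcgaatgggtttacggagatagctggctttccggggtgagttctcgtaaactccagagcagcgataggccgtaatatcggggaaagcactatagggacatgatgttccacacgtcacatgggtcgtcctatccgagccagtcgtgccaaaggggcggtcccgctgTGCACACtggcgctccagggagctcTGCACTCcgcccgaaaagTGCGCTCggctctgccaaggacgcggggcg
Slc30a1: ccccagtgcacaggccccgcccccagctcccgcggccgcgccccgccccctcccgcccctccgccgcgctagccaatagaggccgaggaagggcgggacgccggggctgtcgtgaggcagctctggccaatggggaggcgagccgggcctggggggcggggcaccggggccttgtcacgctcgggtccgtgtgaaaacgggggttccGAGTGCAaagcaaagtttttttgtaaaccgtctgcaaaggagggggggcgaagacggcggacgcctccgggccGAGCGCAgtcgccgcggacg

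The Mt2 window held 4 cores, 2 on each strand, and at least 4 were found in 0.517% of the 32851 promoter windows in the table. The Mt1 window held 3, all on the strand of the gene, and at least 3 were found in 1.97% of windows. Slc30a1 held 2, both on the opposite strand, a number reached by 7.11% of windows. Slc39a8, which has 2 windows, held 1 core in one and 0 in the other, and Mtf1 held 0, where 25.7% of all windows held at least 1. The core of the antioxidant response element, searched as TGACNNNGC on both strands, occurred 1 time in the windows of Mt2 and Slc30a1 and in 1 of those of Slc39a8. It was absent from those of Mt1 and Mtf1, against 12.4% of all windows with at least 1, and overlapped none of the metal response cores. These are matches of letters in a window and were not tested for binding. Bases outside the windows were not searched, so each count or absence holds for its window only and not for the whole promoter.

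**Figure D1:**
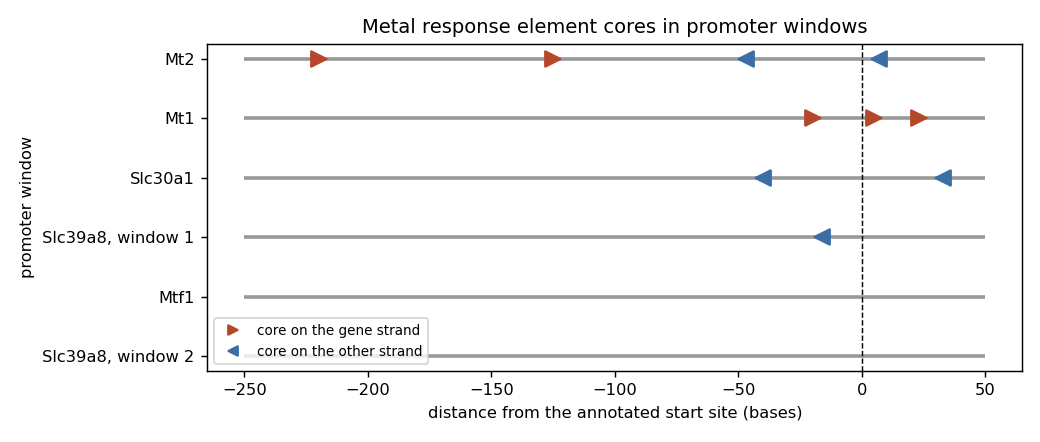
Metal response element cores in the promoter windows of 5 of the 6 genes, by distance from the annotated start site in bases (x axis), with a row for each window. Triangles to the right are cores on the strand of the gene and triangles to the left cores on the opposite strand, and the Mt2 and Mt1 rows carry the most, 4 and 3.

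The levels below are log2 intensity after background correction and quantile normalization of the deposited intensity. The share of probes above background was 50.5% to 56.8% per array. The first principal component of the arrays held 32.6% of the variance, on which control 4 stood lowest (-62.5) and ethanol 2 and 3 stood highest (45.7 and 37.5). The proximal tubule markers (5 of 5 tested), those of the thick ascending limb (2 of 2) and of principal cells (2 of 2) and the podocyte gene Nphs1 were above background on all 12 arrays, as a kidney label requires. Markers of other tissues were also measured. Of those on the array, 3 of 5 fat, 1 of 5 adrenal, 3 of 4 liver, 3 of 3 red cell and 4 of 5 leukocyte genes were tested. The rest were above background on too few arrays. Given here is the mean level of the tested ones. It ran from 5.08 to 9.62 in ethanol and from 4.95 to 8.76 in control kidneys for 3 fat genes, and from 5.08 to 6.12 in ethanol and from 4.50 to 5.39 in control kidneys for the adrenal gene Cyp11a1. It ran from 9.70 to 12.3 in ethanol and from 9.33 to 11.1 in control kidneys for 3 liver genes. For 3 red cell genes it ran from 12.1 to 13.1 in ethanol and from 12.6 to 13.5 in control kidneys, and for 4 leukocyte genes from 6.32 to 6.97 in ethanol and from 6.59 to 7.31 in control kidneys. Their part in the results was not tested. In whole tissue, fewer cells of a type and less RNA per cell cannot be told apart.

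Both metallothionein genes had higher mean levels in ethanol kidneys, and each kidney's Mt1 went with its Mt2. Mt2 had log2 levels of 6.94, 7.69, 7.88, 7.44, 7.16 and 7.03 in ethanol kidneys 1 to 6, against 7.09, 6.54, 6.40, 6.66, 6.13 and 6.51 in control kidneys 1 to 6. All 6 ethanol kidneys lay above 5 of the 6 controls, and the groups overlapped through control 1 alone, which lay above ethanol 1 and ethanol 6. The means were 7.35 ± 0.38 in ethanol and 6.55 ± 0.32 in control kidneys (SD, n = 6 each), a log2 difference of 0.80 ± 0.19 (SE). That is a fold of 1.74, with 1.53 to 1.98 within 1 SE. The probe was dim but above background on every array: its deposited intensity averaged 149.8 ± 37.8 in ethanol and 80.1 ± 25.1 in control kidneys (SD, n = 6 each), a ratio of 1.87.

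Mt1 had log2 levels of 14.8, 15.2, 15.3, 15.4, 15.1 and 15.0 in ethanol kidneys 1 to 6, against 15.0, 14.9, 14.6, 14.9, 14.5 and 14.6 in control kidneys 1 to 6. Of the ethanol kidneys 4 lay above every control, and ethanol 1 and ethanol 6 lay among the controls. The means were 15.1 ± 0.21 in ethanol and 14.8 ± 0.20 in control kidneys (SD, n = 6 each), a log2 difference of 0.36 ± 0.13 (SE) and a fold of 1.28. The probe was very bright, with deposited intensities from 30036 to 41606 in ethanol and from 23875 to 32902 in control kidneys, and a ratio of means of 1.24. The files carry no mark of saturated probes, so whether the scale is compressed at this brightness was not tested. Levels of Mt1 and Mt2 are not set against each other, since probes differ in how brightly they bind.

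**Figure D2:**
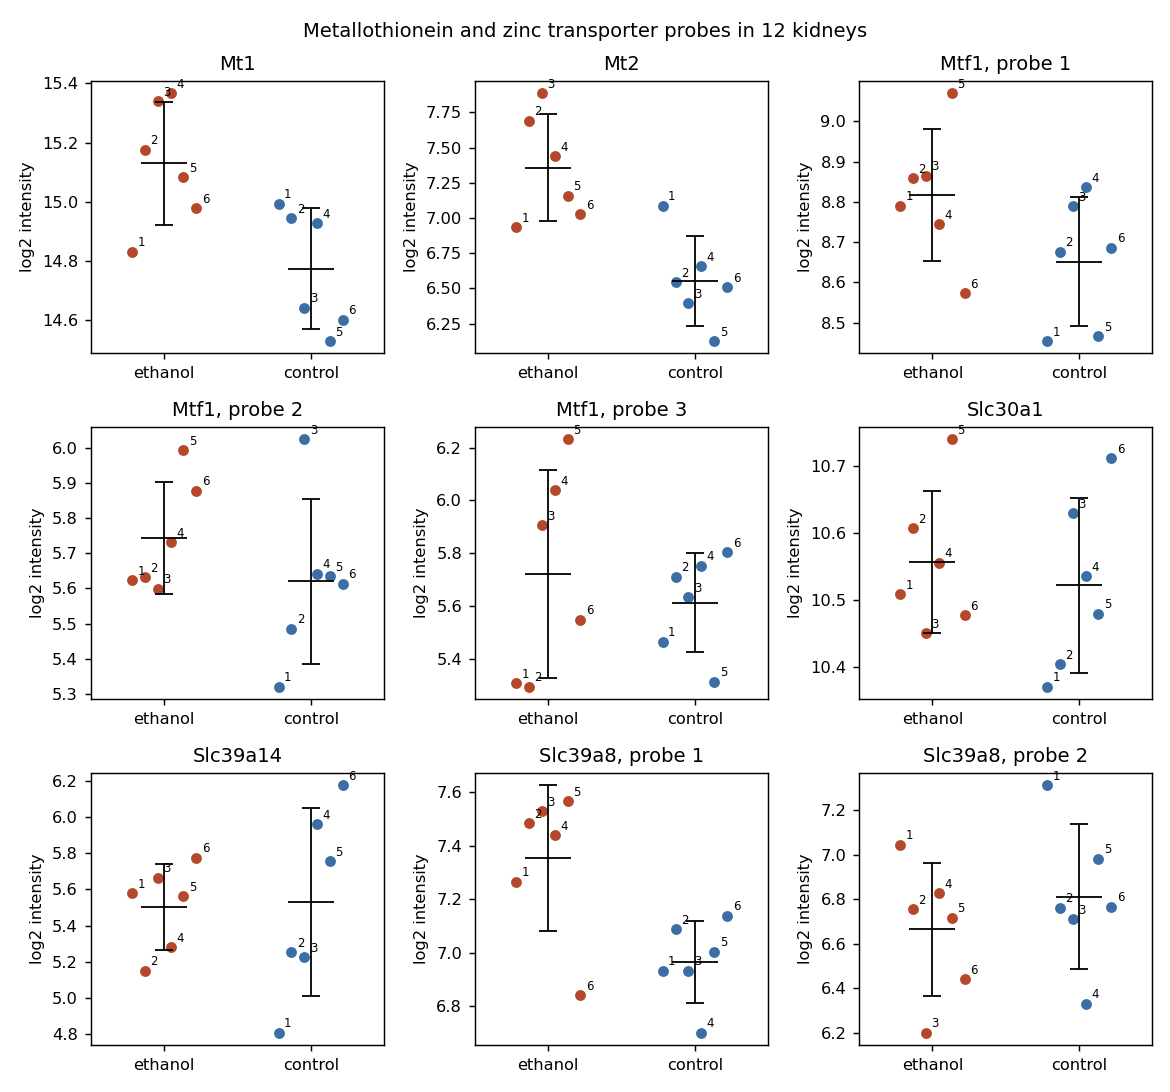
Log2 intensity (y axes, each with its own range) of the 9 tested probes in ethanol kidneys (left, red) and control kidneys (right, blue), with the replicate number beside each point. Bars are the mean and SD of 6 kidneys. Mt2 overlaps between the groups through control 1, and the ethanol mean lies above the control mean by the first Slc39a8 probe and below it by the second.

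Over the 12 kidneys, Mt1 and Mt2 rose and fell together. Their Pearson correlation was 0.911 (permutation p = 8e-05, adjusted p = 0.0012 over the 15 pairs of the 6 genes) and Spearman's rho was 0.944 (permutation p = 3e-05, adjusted p = 0.00045). Without the 2 kidneys farthest from the median of Mt1, r was 0.896. The relation did not rest on the group difference: with group means taken out r was 0.825 (permutation p = 0.00159, adjusted p = 0.0238), and it was 0.837 in the 6 ethanol kidneys (exact permutation p = 0.0486) and 0.815 in the 6 controls (exact permutation p = 0.0125). After adjustment over 15 pairs the values within a group no longer passed (adjusted p = 0.365 for ethanol and 0.188 for control kidneys, exact permutation). Ethanol 2, 3 and 4 were the 3 highest kidneys for both genes, and control 5 was the lowest for both. Mt1 and Mt2 are similar in sequence, and whether either probe also binds the other transcript was not tested, since the probe sequences were not used here.

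**Figure D3:**
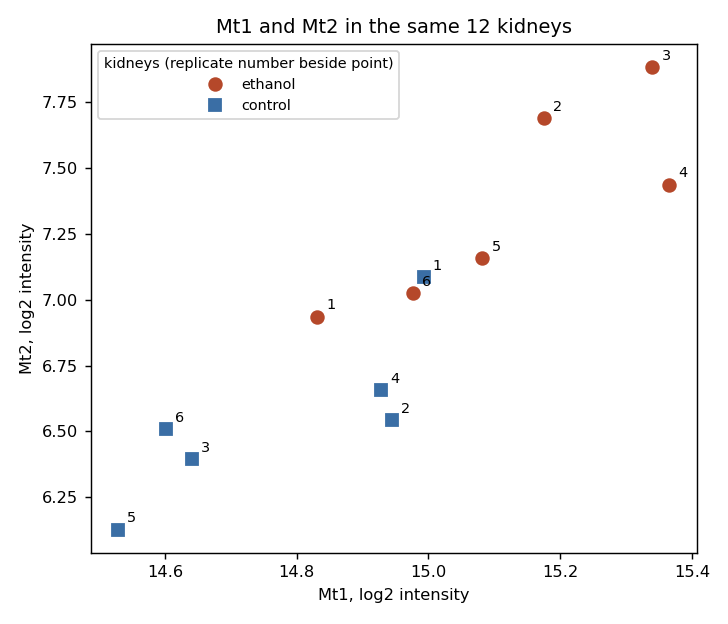
Mt1 (x axis) against Mt2 (y axis), both as log2 intensity, with a point for each of the 12 kidneys and its replicate number beside it; circles are ethanol and squares control kidneys. The points run along one diagonal (r = 0.911), with ethanol 2, 3 and 4 at the top and control 5 at the bottom.

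Likeness between genes was ranked by Pearson's r after group means were taken out, and the order depends on that choice. Among the 12615 other genes with a tested probe, Mt2 stood at rank 52 by this r with Mt1, and Mt1 stood at rank 7 by its r with Mt2. The genes closest to each were picked from many over 12 kidneys and are given as a description, with no test. For Mt1 they were Mfge8 (r = 0.939), Pnpla2 (0.937), Slco2b1 (0.937), Aatk (0.935) and Repin1 (0.922). For Mt2 they were P3h3 (0.921), Cpz (0.907), Nectin2 (0.886), Mlf1 (0.85) and Gng7 (0.833). No gene was on both lists of 5. With group means left in, the r of the first 5 with Mt1 ran from 0.668 for Mfge8 to 0.83 for Pnpla2, all below the 0.911 of Mt2. The r of the second 5 with Mt2 then ran from 0.226 for P3h3 to 0.86 for Mlf1, also below that of Mt1. These genes were picked with group means taken out, and all genes were not ranked with the means left in. Whether other genes lie above 0.911 there is therefore not shown. Pnpla2 encodes a triglyceride lipase and Mfge8 a secreted milk fat globule protein.

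Mtf1, the gene of the zinc sensor, differed little between the groups by each of its 3 probes. Its brightest probe had log2 levels of 8.79, 8.86, 8.87, 8.75, 9.07 and 8.57 in ethanol kidneys 1 to 6 and 8.46, 8.68, 8.79, 8.84, 8.47 and 8.69 in control kidneys 1 to 6. The groups overlapped broadly, with ethanol 5 as the highest kidney. The log2 difference was 0.17 ± 0.11 (SE), and the other 2 probes, which were dim, gave 0.12 ± 0.13 and 0.11 ± 0.17. Agreement between the 3 probes over the kidneys was loose, with Pearson's r from 0.372 to 0.56 and Spearman's rho from 0.217 to 0.357. Without the 2 farthest kidneys the r of the 3 pairs were -0.047, 0.256 and 0.138. No probe pair passed among the 4 pairs tested for Mtf1 and Slc39a8 (smallest permutation p = 0.0589, adjusted p = 0.19).

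Slc30a1, the exporter gene, was the steadiest of the set. Its log2 level ran from 10.5 to 10.7 in ethanol kidneys, with a median of 10.5, and from 10.4 to 10.7 in control kidneys, with a median of 10.5. The difference was 0.03 ± 0.10 (SE), and leaving out ethanol 5 turned its sign (-0.002). Its SD over the 12 kidneys was 0.12, lower than that of all but 2.9% of the tested probes, whereas the SD of Mt2 was 0.54, higher than that of 93.6%. These percentiles do not take the brightness of a probe into account. Mt1, Mt2 and Slc30a1 are all known MTF1 targets, and whether they share regulation in these kidneys was not tested. Slc30a1, which varied little, had an r of -0.157 with Mt1 (permutation, adjusted p = 0.721, Spearman's rho -0.112) and of -0.048 with Mt2 (adjusted p = 0.88, rho -0.077). Without the 2 farthest kidneys these r were -0.338 and 0.006.

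The importer gene Slc39a8 had 2 tested probes that disagreed. The brighter one had log2 levels of 7.27, 7.49, 7.53, 7.44, 7.57 and 6.84 in ethanol kidneys 1 to 6, against 6.93, 7.09, 6.93, 6.70, 7.003 and 7.14 in control kidneys 1 to 6. By this probe 5 ethanol kidneys lay above every control and ethanol 6 lay among the lowest kidneys, with a log2 difference of 0.39 ± 0.13 (SE). The other probe had log2 levels of 7.05, 6.75, 6.20, 6.83, 6.72 and 6.44 in ethanol kidneys 1 to 6, against 7.31, 6.76, 6.71, 6.33, 6.98 and 6.77 in control kidneys 1 to 6. There the groups overlapped and the difference lay on the lower side, at -0.15 ± 0.17 (SE), so the mean of the 2 probes differed by 0.12. Over the 12 kidneys the 2 probes had an r of -0.028 (permutation p = 0.932, adjusted p = 0.932) and a rho of 0.063, and without the 2 farthest kidneys r was 0.343. Which probe follows the transcript was not tested.

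The brighter Slc39a8 probe also moved with the main axis of the arrays. Its r with the first principal component was 0.796 (permutation p = 0.00151, adjusted p = 0.00906 over the 6 genes) and its rho 0.776 (adjusted p = 0.0267), with r = 0.675 without the 2 farthest kidneys and 0.72 with group means taken out (permutation, adjusted p = 0.05). Without control 4 and ethanol 2 and 3, the 3 arrays farthest out on that axis, the Slc39a8 difference was 0.26. For Mt2 the r with that axis was 0.559 and for Mt1 0.464, neither past the threshold (permutation, adjusted p = 0.174 and 0.191; rho 0.531 and 0.517, or r of 0.48 and 0.558 without the 2 farthest kidneys). Without those arrays the Mt2 difference was 0.61 and the Mt1 difference 0.32.

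Slc39a14, the other importer, lay close to background. Its brighter probe had log2 levels of 5.58, 5.15, 5.67, 5.28, 5.56 and 5.78 in ethanol kidneys 1 to 6 and 4.81, 5.25, 5.22, 5.96, 5.76 and 6.18 in control kidneys 1 to 6. The ethanol kidneys lay inside the range of the controls, which held both the lowest and the highest value. The difference was -0.03 ± 0.21 (SE), and the probe was above background in 6 of 6 ethanol and 5 of 6 control kidneys. The second Slc39a14 probe was above background in only 2 of 6 ethanol and 3 of 6 control kidneys and was not tested.

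Apart from Mt1 and Mt2, none of the 15 gene pairs passed. The closest pair after it was Mt2 with Slc39a8, at r = 0.683 (permutation, adjusted p = 0.118; rho 0.615), which was 0.629 without the 2 farthest kidneys and 0.313 with group means taken out. Mtf1 had an r of 0.624 with Slc30a1 (permutation, adjusted p = 0.143; rho 0.524), which was 0.231 without the 2 farthest kidneys. Mtf1 with Slc39a8 had an r of 0.591 (permutation, adjusted p = 0.143; rho 0.594). That pair passed only without control 4 (r = 0.798, permutation, adjusted p = 0.0202), and its r was 0.85 in ethanol kidneys (exact permutation p = 0.025, adjusted p = 0.365) and -0.368 in controls (exact permutation p = 0.475). Mtf1 itself had an r of 0.41 with Mt1 (permutation, adjusted p = 0.396; rho 0.399) and of 0.425 with Mt2 (adjusted p = 0.396; rho 0.503), and these were 0.282 and 0.157 without the 2 farthest kidneys.

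**Figure D4:**
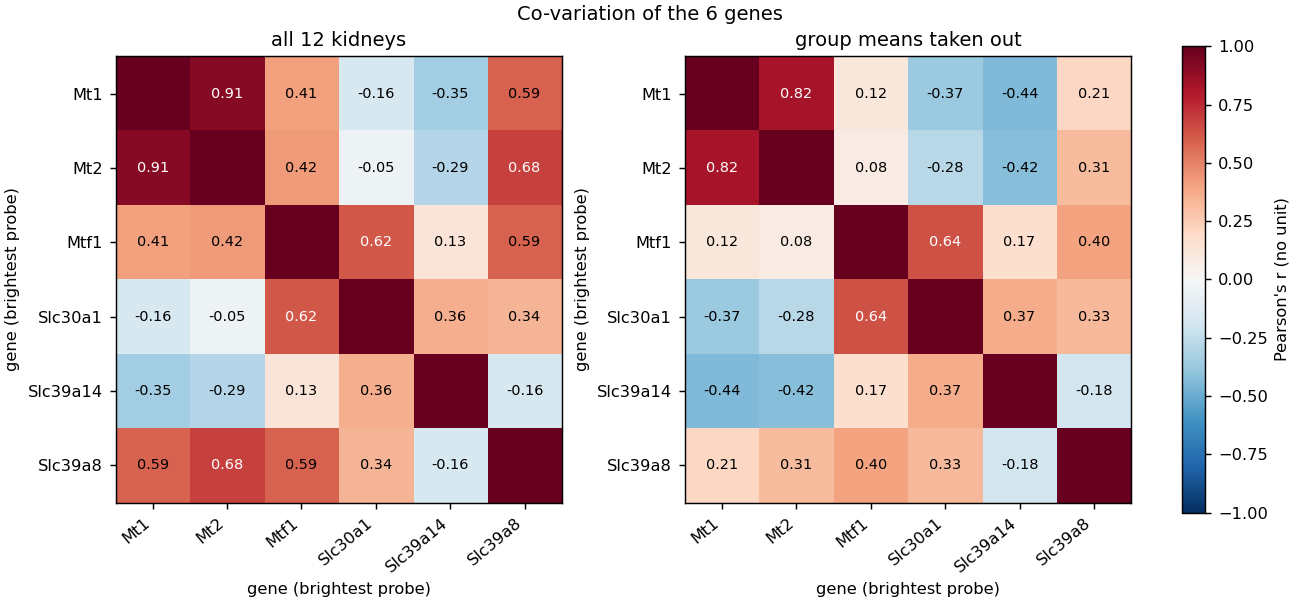
Pearson's r between the brightest tested probes of the 6 genes over all 12 kidneys (left) and with the group means taken out (right); the colour scale runs from -1 to 1. The Mt1 and Mt2 cell is the darkest off the diagonal in both panels (0.911 and 0.825), and the pairs of Slc39a8 with Mt1 and Mt2 are paler in the right panel.

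In the comparison of ethanol with control kidneys (limma, Benjamini-Hochberg over all tested probes), 0 of the 9 tested probes passed an adjusted p under 0.05, as did 0 of the 23984 tested probes (0.0%). The adjusted p of the 9 ran from 0.379 to 0.97. With no adjustment, 3 probes had a p under 0.05 on the higher side, those of Mt2 and Mt1 and the brighter one of Slc39a8, and 0 on the lower side, beside 5.34% of all tested probes higher and 6.81% lower. For 0 of the 9 probes did the groups fail to overlap, beside 0.279% of all probes on the higher and 0.204% on the lower side. The median log2 difference was 0.12 over the 9 probes and 0.01 over all tested probes.

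Like the 6 genes, the other listed genes of the zinc pathway showed no difference that passed. Of the 2 other metallothionein genes, the brain form Mt3 was above background in too few kidneys to be tested, and Mt4, known from stratified epithelia, differed by -0.11 ± 0.15 (SE). Of the 9 other Slc30 zinc exporter genes, 7 were tested, with 5 above 0 and 2 below and a median of 0.07. The largest difference among them was that of Slc30a4, which encodes ZnT4, a vesicular zinc transporter, at 8.18 ± 0.34 in ethanol and 7.83 ± 0.39 in control kidneys (SD, n = 6 each). Of the 12 other Slc39 importer genes, 11 were tested, with 5 above 0 and 6 below and a median of -0.03. Slc39a10, an importer gene known to be repressed through MTF1, differed by 0.02 ± 0.19 (SE). None of these genes passed in limma over all probes, and by its brightest probe none had an unadjusted p under 0.05. Their other tested probes ran from -0.54 for Slc39a5, whose brightest probe gave -0.03, to 0.29 for Slc30a9, whose brightest gave 0.22.

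Genes that share inducers with the metallothioneins gave mixed values. Beside each list below, 54.6% of the 12616 genes with a tested probe lay above 0 and their median was 0.02. Of 11 metal- and oxidant-inducible genes, 10 were tested, with 3 above 0 and 7 below and a median of -0.11. Hmox1, the heme oxygenase gene that metals and oxidants induce, was 7.01 ± 0.50 in ethanol and 7.87 ± 0.42 in control kidneys (SD, n = 6 each). This group difference lay on the opposite side from those of Mt1 and Mt2. Over the 12 kidneys its r was -0.271 with Mt1 and -0.461 with Mt2. With group means taken out these r were 0.434 and 0.226, and none passed after adjustment. Csrp1, which encodes a LIM domain protein, differed by -0.52 ± 0.19 (SE). All 12 glucocorticoid-responsive genes were tested, with 10 above 0 and 2 below and a median of 0.21, and 0 had an unadjusted p under 0.05 (limma). The largest differences among them were those of Fkbp5 and Sgk1, both 0.36, at SEs of 0.32 and 0.23. The 2 below 0 were Per1, at -0.21 ± 0.53 (SE), and Nr3c1, at -0.18 ± 0.14 (SE). Of the 14 acute phase and STAT3 genes, 13 were tested, with 10 above 0 and 3 below and a median of 0.06. The serum amyloid gene Saa3 differed by 0.44 ± 0.16 (SE) and was above background in 6 of 6 ethanol and 5 of 6 control kidneys. Of 11 copper handling genes, 10 were tested, with 3 above 0 and 7 below and a median of -0.09. In these lists 0 genes passed in limma over all probes. By the brightest probe and with no adjustment, Hmox1 and Csrp1 on the lower side and Saa3 on the higher side had a p under 0.05. Over all genes 4.72% were higher and 4.95% lower at that level.

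**Figure D5:**
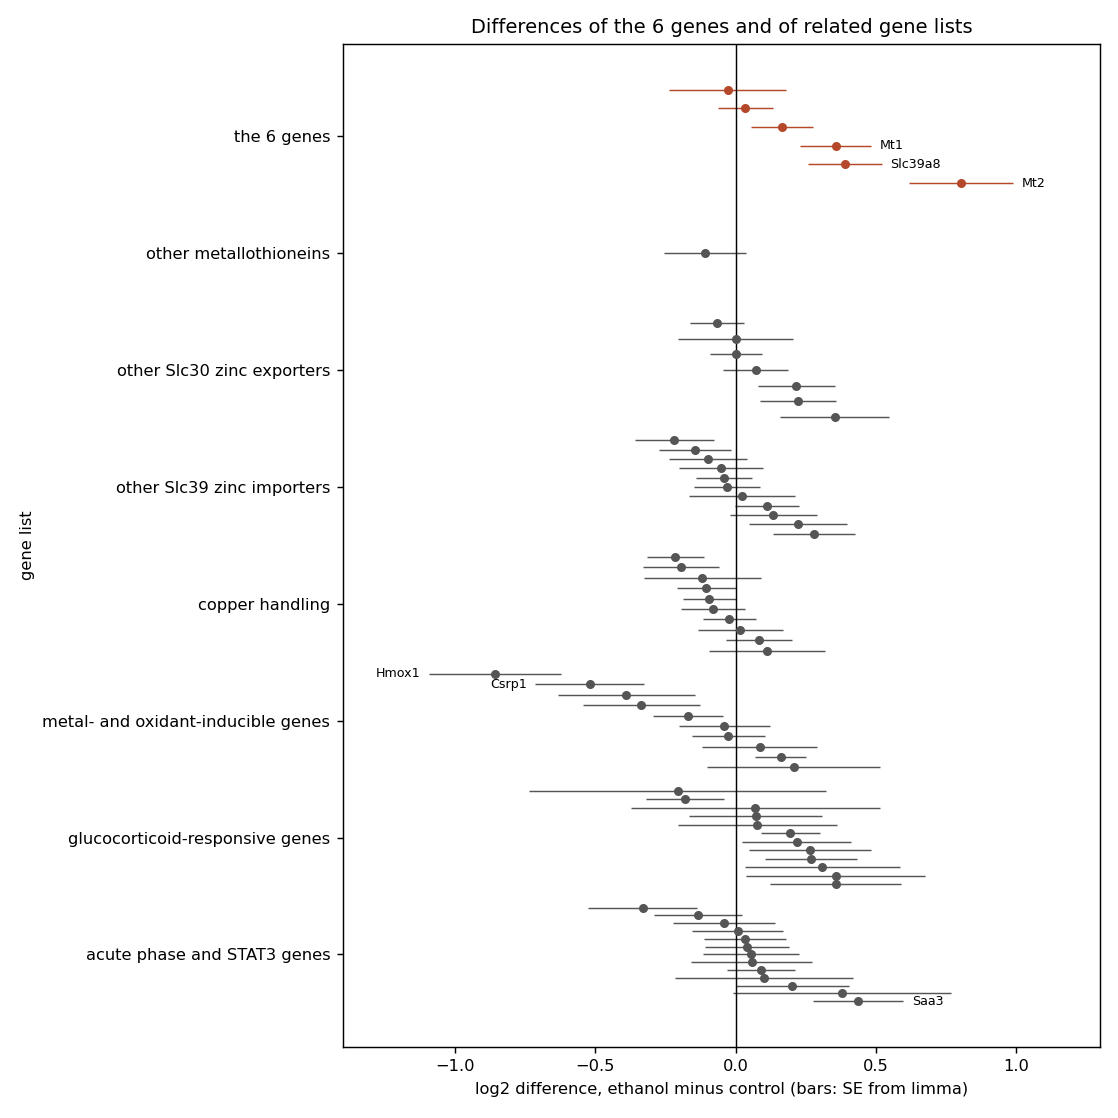
Log2 difference, ethanol minus control (x axis, with bars of 1 SE from limma), of each tested gene by its brightest probe, in rows by gene list (y axis), with the 6 genes in red. Names mark genes with an unadjusted p under 0.05: Mt2, Slc39a8, Mt1 and Saa3 to the right of 0, and Hmox1 and Csrp1 to the left.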

How the data were processed

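Biotin-labelled RNA of 12 kidneys was hybridised to Illumina arrays, and the authors deposited background-subtracted intensity, one linear value per probe and array, made in GenomeStudio per the submitters' processing notes. The sources used here give neither its version nor its background method, nor whether arrays were scaled to each other. A second table, of 24 columns named for no labelled sample, was not used here.

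The background of each array was the mode of its values (kernel density, bandwidth 2, below the 0.6 quantile) with the spread below it. A normal-exponential correction (offset 16), quantile normalization and log2 followed, in limma 3.58.1 under R 4.3.3. A probe was above background at a normal probability under 0.05, and was tested if that was so for 6 or more of the 12 arrays. The number of arrays limits the precision. Ethanol was compared with control by lmFit and eBayes, which was tested on simulated data, with Benjamini-Hochberg adjustment over all tested probes.

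Correlations used 100000 permutations for 12 kidneys (smallest possible p 1e-05) and all 720 orders for 6. They are two-sided and adjusted within each family. Pairs used the probe of each gene with the highest mean, which is also the one given for listed genes.

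Symbols came from the platform annotation (1 symbol for 34885 probes, several for 18, none for 10378), of which 34807 matched a gene number in RefSeq GRCm38.p6, with 0 symbols altered. Promoter windows matched 5 of the 6 genes. The members and lists were chosen with earlier results of these data known. Named are all members, listed genes at an unadjusted p under 0.05, and the 5 genes closest to Mt1 and to Mt2 (predicted and clone names left out). Other listed genes (Mt3, Mt4, Slc30a4, Slc39a10, Fkbp5, Sgk1, Per1, Nr3c1) were named after their values were seen.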

Additional observations from a re-analysis of the deposited data

How the results depend on the processing

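The Mt1 difference stayed above 0 under all 22 alternatives (0.31 to 0.42), as did that of Mt2 (0.61 to 0.93). That of the brighter Slc39a8 probe also did (0.26 to 0.49), and the mean of both Slc39a8 probes was 0.12. The filter settings, the variance prior and the replicate block cannot move these differences, so they add nothing to that count. As the set was chosen by the Mt2 difference, its sign here describes the processing and supports nothing further. With each kidney left out in turn Mt1 ran from 0.31 to 0.42 and Mt2 from 0.70 to 0.91. The Mt1 and Mt2 correlation ran from 0.825 to 0.937 over 19 alternatives (permutation, adjusted p from 0.00045 to 0.0238). The Slc39a14 difference has no settled direction: it lay above 0 in 9 of 21 alternatives and was 0.44 with the deposited values as they stand. With those values 1 probe was called (a probe without a symbol and no member; adjusted p = 0.00782, limma), against 0 in the other 20 alternatives. The number of gene pairs that passed was 1 or 2 with each kidney left out, and 2 without control 4. The same replicate numbers occur in both groups, and the labels do not say whether they pair kidneys. Most same-numbered kidneys did not deviate together (r from 0.001 to 0.465, over 0.1 for 1 of 6 numbers, number 2). Taking the number as a block leaves the Mt2 difference at 0.80 by design, as each number holds 1 kidney of each group. With this block 0 probes were called. The smallest adjusted p was then 0.0697, against 0.301 without the block (limma). At an unadjusted p under 0.05 the block gave 3554 probes and the comparison without it 2914; without ethanol 2 there were 1833 and without ethanol 3 1847. More of these were lower than higher (1633 and 1281), which turned without control 4 (1262 and 1450) and with the deposited values (1089 and 1125). The strict filter removed the Slc39a14 probe. Leaving out the 3 arrays was chosen after seeing the data, and signal near background limits dim probes such as that of Slc39a14.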

Other observations

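Mt1 and Mt2 were each correlated with the 4 other members and with every tested gene of the related lists, 136 correlations chosen after the data were seen. None passed after adjustment (smallest adjusted p = 0.255 for Pearson's r and 0.375 for Spearman's rho, permutation). For Pearson's r 10 had an unadjusted p under 0.05, where a share of 0.05 of the 136 would fall with no relation. Of these, 2 were those of the member Slc39a8 (r = 0.586 with Mt1 and 0.683 with Mt2). As Mt1 and Mt2 correlate at 0.911, the values of a gene with Mt1 and with Mt2 are not separate results. The values below are a description. Saa3, an acute phase gene, had an r of 0.765 with Mt1 (permutation p = 0.00366; rho 0.755, p = 0.00599; r = 0.699 without the 2 farthest kidneys) and of 0.719 with Mt2 (permutation p = 0.00841; rho 0.734, p = 0.00827; r = 0.77 without them). Gclm, a subunit gene of glutathione synthesis, had an r of 0.745 with Mt1 (permutation p = 0.00574; rho 0.643, p = 0.0279; r = 0.79 without them) and of 0.71 with Mt2 (permutation p = 0.0094; rho 0.657, p = 0.024; r = 0.808 without them). With group means taken out the r of Saa3 were 0.584 and 0.462, and those of Gclm 0.529 and 0.403. The zinc transporter gene Slc39a13 had an r of 0.714 with Mt1 (permutation p = 0.00854; rho 0.657, p = 0.0242; r = 0.611 without the 2 farthest kidneys) and of 0.702 with group means taken out. With Mt2 its r was 0.466 (permutation p = 0.126; rho 0.517, p = 0.0892; r = 0.521 without them) and 0.338 with group means taken out. Slc39a11 ran against Mt1, at r = -0.705 (permutation p = 0.0112; rho -0.743, p = 0.00754; r = -0.586 without them), and with Mt2 at r = -0.565 (permutation p = 0.0573; rho -0.602, p = 0.042; r = -0.536 without them). Cox17, which encodes a copper chaperone of the mitochondrion, had an r of -0.591 with Mt1 (permutation p = 0.0415; rho -0.615, p = 0.0365; r = -0.811 without them) and of -0.643 with Mt2 (permutation p = 0.0225; rho -0.622, p = 0.0343; r = -0.662 without them). With group means taken out the r of Slc39a11 were -0.613 with Mt1 and -0.386 with Mt2, and those of Cox17 -0.46 and -0.557.

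No kidney stood far from its group by Dixon's test in any of the 18 groups formed by the 9 tested probes and the 2 groups.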
